A study of Drosophila melanogaster with 16 samples.

Results

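The 36 genes described here encode proteins of the septate junctions, the adherens junctions and the apical and basolateral polarity complexes of *Drosophila* epithelia. They were named one by one from what is known of their proteins. Earlier results of these data were known at that time, so the choice was not independent of the values below. Their symbols were matched to the gene IDs of the deposited tables. All 36 were found among the 13754 genes of each table, and all 36 passed the minimum of a mean normalized count of 10 in both tables, with 10212 and 10369 genes tested in all in the *Asx0* and the *SceI48A* table. The lowest mean belonged to *par-6* in both tables, at 618 and 917 normalized counts, so none of the 36 lay near the minimum.

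The study sequenced poly(A) RNA of single embryos at stage 16 to see how transcription changes when H2Aub1, the ubiquitin mark that PRC1 puts on histone H2A, is not removed or not made. *Asx0* embryos (n = 5) lacked zygotic Asx, the partner of the deubiquitinase Calypso in PR-DUB. They were the GFP-negative progeny of parents that carried the null allele Asx22P4 over a GFP-marked balancer chromosome, so that heterozygous mothers could still supply Asx product to the egg. *SceI48A* embryos (n = 4) carried an *Sce* transgene with the Ile48Ala change, which removes the E3 ligase activity of PRC1, in a background null for endogenous *Sce*, with no wild-type Sce from mother or zygote. Each mutant was set against Oregon-R wild-type embryos of its own table, 3 in the *Asx0* table and 4 others in the *SceI48A* table. Both mutant stocks also differ from Oregon-R in marker mutations and inserted elements, so that a difference between stocks and the effect of the mutation cannot be told apart for any gene below.

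Septate junctions seal the space between epithelial cells of insects. Their core is a large complex of adhesion proteins, claudins and the Na,K-ATPase, which small Ly6 proteins help to assemble, and special proteins close the corners where cells meet. Adherens junctions lie above them and hold cells together through E-cadherin and the catenins. Apical membrane is set apart by the Crumbs and Par complexes, and basolateral membrane by the Scribble module, Yurt and Par-1, which antagonize each other. At stage 16 the epidermis, trachea, hindgut, salivary glands and the glia around the nervous system all form septate junctions. The RNA came from whole embryos, so a smaller share of cells of a type and less RNA per cell cannot be told apart.

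The deposited values are log2 normalized read counts. They behave as if shrunken towards the mean of each gene, in which case fold changes are smaller than on the scale of counts, and the number of reads per embryo is unknown. In wild-type embryos the levels per kb of the longest transcript, on this log2 scale, ranged over the 36 genes from 7.19 for *baz* to 12.57 for *Atpalpha* in the *Asx0* table and from 7.79 for *yrt* to 12.95 for *Atpalpha* in the *SceI48A* table. *Atpalpha*, the catalytic subunit of the sodium pump, *arm*, which encodes beta-catenin, and *Fas3*, a homophilic adhesion protein, were the 3 highest in both tables. *Fas3* was at 11.57 and 12.14 per kb and *arm* at 11.73 and 12.25. The 3 lowest were *baz*, *yrt* and *par-6* in both tables, with *par-6* at 7.65 and 8.10 and *baz* at 7.19 and 8.01. The genes for the cortical polarity proteins Par-3 (*baz*), Par-6 and Yurt thus lay at the bottom of the range on this measure. Annotated *baz* transcripts run from 6.485 to 10.439 kb, and with another length the order could differ. The tables were normalized separately, and levels of 1 table are not to be compared with those of the other.

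**Figure D1:**
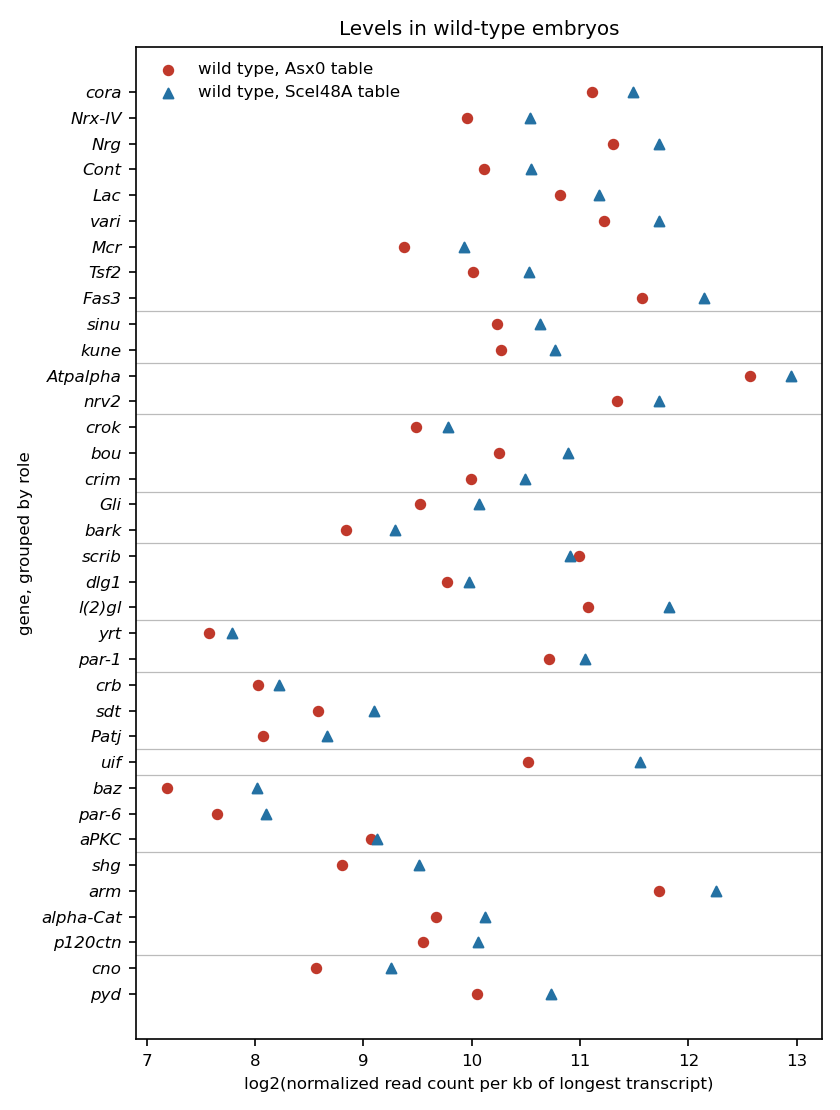
Mean level of each of the 36 genes in wild-type embryos, as log2 of the normalized read count per kb of longest transcript, with circles for the 3 embryos of the *Asx0* table and triangles for the 4 embryos of the *SceI48A* table. *Atpalpha*, *arm* and *Fas3* lie at the top of the range and *baz*, *yrt* and *par-6* at the bottom in both tables.

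Epidermal markers were present in every embryo, and all 6 of the list (*grh*, *Ddc*, *ple*, *kkv*, *knk*, *sha*) were tested in both tables. Their log2 values, returned to the linear scale and summed, overlapped between groups. The sums were 8747 to 9335 in *Asx0* against 8463 to 8945 in wild-type embryos. In the other table they were 14055 to 18003 in *SceI48A* against 13383 to 16231 in wild-type embryos. In *Asx0* embryos *sha* was called higher (log2 fold change 0.24, adjusted p = 0.0234), and at an unadjusted p under 0.05 3 of the 6 were higher and 1 lower; in *SceI48A* embryos none was called by limma, and 1 was higher at an unadjusted p under 0.05. Embryos of 1 group differed in other respects, too. The level of *msl-2* minus that of *Sxl*, which differs between the sexes, varied inside every group. It was -3.69, -2.53, -2.40, -2.37 and -2.45 in *Asx0* embryos, against -3.94, -2.39 and -3.90 in the wild-type embryos of that table, so that the groups were not balanced in it; with it as a covariate, neither gene called higher in *Asx0* embryos below was still called. In the *SceI48A* table it was -2.14, -3.74, -2.02 and -2.32 in *SceI48A* embryos, against -1.73, -2.31, -3.93 and -2.28 in wild-type embryos. In the *SceI48A* table, *SceI48A* replicate 1 and wild-type replicate 1 stood apart from the rest. Of the 8 embryos, wild-type replicate 1 had the lowest for 26.2% and the highest for 22.7% of all tested genes, and *SceI48A* replicate 1 the lowest for 21.7% and the highest for 22.2%, while each of the other 6 embryos had 7.11% to 12.9% of the lowest and 7.67% to 12.2% of the highest. The counts over the 36 genes, their median and the values of the called genes are given with and without these 2 embryos.

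In *Asx0* embryos, 5 of the 36 genes changed at an adjusted p under 0.05 (limma, Benjamini-Hochberg adjustment over all tested genes), 3 of them downwards. Lower were *cora*, the claudin gene *sinu* and the polarity kinase gene *aPKC*, to between 0.803 and 0.825 of the wild-type level. Higher were *l(2)gl*, 1.39-fold, and the E-cadherin gene *shg*, 1.16-fold. The 2 higher genes are to be read against 5.19% of all tested genes called higher, and the 3 lower ones against 6.15% called lower. These shares are close to those of the 36 genes, 5.56% and 8.33%. No gene of the 36 passed an additional limit of a 2-fold change on these log2 values, which 0.441% of all tested genes did. The study set its 2-fold limit on DESeq2 fold changes, which is an unlike measure. Over the 36 genes the median log2 fold change was 0.04, with quartiles at -0.02 and 0.11, and over all tested genes it was -0.0002.

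Among the septate junction adhesion and scaffold proteins, *cora* was the only one of 9 that was called. It encodes Coracle, a FERM domain protein that anchors the junction under the membrane. Its log2 level was 13.29, 13.29, 13.37, 13.39 and 13.43 in *Asx0* embryos, against 13.63, 13.75 and 13.64 in wild-type embryos. Every mutant embryo lay below every wild-type embryo, by a log2 fold change of -0.32 (limma, standard error SE = 0.055, adjusted p = 0.00374). The call was kept in all 20 alternative analyses, with adjusted p between 0.00245 and 0.0208.

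The other 8 of this group had log2 fold changes between -0.07 for *vari* and 0.13 for *Fas3*. *Fas3*, which encodes the cell adhesion protein Fasciclin 3, was at 13.74, 13.78, 13.73, 13.76 and 13.66 in *Asx0* embryos, against 13.59, 13.58 and 13.64 in wild-type embryos (limma, adjusted p = 0.108). *Nrg*, the L1-type adhesion protein Neuroglian, and *Lac*, the immunoglobulin-domain protein Lachesin, had no overlap between groups either, with log2 fold changes of 0.11 and 0.12 and adjusted p of 0.199 and 0.195.

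*sinu*, which encodes the claudin Sinuous, was at 11.00, 10.96, 11.04, 11.00 and 10.98 in *Asx0* embryos, against 11.32, 11.29 and 11.23 in wild-type embryos. The mutant embryos lay close to each other and below all wild-type embryos, with a log2 fold change of -0.28 (limma, SE = 0.045, adjusted p = 0.00241), the smallest adjusted p of the 36 genes. It was called in all 20 alternatives. The second claudin gene, *kune*, had a log2 fold change of -0.01 (adjusted p = 0.965), with overlapping groups. Of the Na,K-ATPase subunits, the beta subunit gene *nrv2* was at 12.62, 12.63, 12.56, 12.63 and 12.63 in *Asx0* embryos, against 12.72, 12.82 and 12.73 in wild-type embryos, a difference of -0.14 that missed the threshold (adjusted p = 0.0773). *Atpalpha* had a log2 fold change of 0.10 (adjusted p = 0.253). Among the Ly6 proteins *bou*, which encodes Boudin, had the smallest p, with 9.57, 9.76, 9.38, 9.30 and 9.44 in *Asx0* embryos, against 9.61, 9.79 and 9.83 in wild-type embryos (log2 fold change -0.26, adjusted p = 0.126). Its groups overlapped. The tricellular junction genes *Gli* and *bark* had log2 fold changes of 0.07 and 0.01, with adjusted p of 0.432 and 0.904.

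Among the basolateral genes, *l(2)gl* had the largest change of the 36. It encodes Lethal giant larvae, a substrate of aPKC that works with Scribble and Discs large. Its log2 level was 13.95, 13.97, 14.07, 14.10 and 13.98 in *Asx0* embryos, against 13.24, 13.55 and 13.82 in wild-type embryos. All mutant embryos were above all wild-type embryos, with a log2 fold change of 0.48 (limma, SE = 0.11, adjusted p = 0.0146). The wild-type embryos differed among themselves far more (SD 0.29, n = 3) than the mutant embryos did (SD 0.068, n = 5), and the wild-type SD was the largest of the 36 genes. With *msl-2* minus *Sxl* as a covariate, or with no filter on low genes, the call was lost; its adjusted p over the alternatives lay between 0.0016 and 0.0674. Its partners *scrib* and *dlg1* had log2 fold changes of -0.09 (adjusted p = 0.5) and 0.12 (adjusted p = 0.191). Yurt and Par-1, which also act basolaterally, gave log2 fold changes of -0.05 for *yrt* and -0.09 for *par-1* (adjusted p = 0.582 and 0.327).

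Of the apical genes, *aPKC* was lower. Its product is the kinase of the Par complex. It was at 10.93, 10.92, 11.06, 10.96 and 11.07 in *Asx0* embryos, against 11.38, 11.32 and 11.10 in wild-type embryos. The groups did not overlap, but the highest mutant embryos came close to wild-type replicate 3. The log2 fold change was -0.28 (limma, SE = 0.069, adjusted p = 0.0245), and the call was lost without *Asx0* replicate 1 or 2 or wild-type replicate 1 or 2, with adjusted p between 0.0054 and 0.0972 over all alternatives. *baz* and *par-6* had log2 fold changes of 0.18 (adjusted p = 0.118) and 0.04 (adjusted p = 0.719). In the Crumbs complex the smallest p belonged to *Patj*, a PDZ scaffold gene, at a log2 fold change of 0.10 (adjusted p = 0.288), and *uif*, which encodes the apical transmembrane protein Uninflatable, had 0.13 (adjusted p = 0.433).

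*shg* was the called gene of the adherens junction. It was at 11.65, 11.72, 11.66, 11.83 and 11.63 in *Asx0* embryos, against 11.44, 11.40 and 11.60 in wild-type embryos. All mutant embryos lay above all wild-type embryos, although wild-type replicate 3 lay just below the lowest mutant embryo. The log2 fold change was 0.22 (limma, SE = 0.064, adjusted p = 0.0499). This call was at the threshold and was lost when any embryo other than wild-type replicate 3 was left out, with adjusted p between 0.0245 and 0.166 over the alternatives. *arm* had a log2 fold change of 0.14 (adjusted p = 0.16), while *alpha-Cat* was at 0.00 and *p120ctn* at 0.04. Of the scaffolds *pyd*, which encodes the ZO-1 protein of the fly, had 0.16 (adjusted p = 0.271); its SD among wild-type embryos was 0.19 (n = 3), next after *l(2)gl*, and that of *uif* was 0.17.

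Mutant and wild-type embryos did not overlap for 10 of the 36 genes in the *Asx0* table, 6 of them higher (*Nrg*, *Lac*, *Fas3*, *Atpalpha*, *l(2)gl*, *shg*) and 4 lower (*cora*, *sinu*, *nrv2*, *aPKC*). Among all tested genes 9.79% were higher without overlap and 10.3% lower, so the shares of the 36 genes are to be read against these. Markers of other cell types were read in the same embryos. Here and below, marker sums add up log2 values returned to the linear scale, over all listed markers, also those below the minimum. Sums with a marker left out cover the tested markers only. Midgut markers summed to 2008 to 2429 in *Asx0* embryos, against 3620 to 4844 in wild-type embryos (4 of 6 tested, 3 called lower, *betaTry* and *Mal-A1* below the minimum). The sum over the tested markers had no overlap with any 1 of the 4 left out. *CG4678*, the tested midgut marker that was not called, had a log2 fold change of 0.06. Hemocyte markers summed to 6278 to 7180 in *Asx0* embryos, against 7395 to 8143 in wild-type embryos (5 of 6 tested, *NimC1* called lower, *He* below the minimum), but the groups overlapped without *Pxn*. The other hemocyte markers were not called, with log2 fold changes of 0.15 for *srp*, -0.002 for *Hml*, -0.16 for *crq* and -0.27 for *Pxn*. Fat body markers overlapped, at 58982 to 76586 in *Asx0* against 71789 to 97398 in wild-type embryos. Of these, 2 of 5 tested were called lower (*Lsp1gamma*, *Mtp*), and *Fbp1* was below the minimum. *Lsd-1* had 0.18, *Apoltp* -0.12 and *apolpp* -0.29, none of them called. Of 6 neuronal markers *Appl* was called lower (log2 fold change -0.70), and the sum, 34030 to 37924 in *Asx0* against 39227 to 40011 in wild-type embryos, overlapped without it (28498 to 31810 against 29869 to 30489). Of 6 glial markers *nrv2*, itself 1 of the 36 genes, made the sum lower, at 9650 to 10174 in *Asx0* against 10354 to 10851 in wild-type embryos; the other 5 had log2 fold changes between -0.03 and 0.06, and their sums overlapped, at 3626 to 3818 in *Asx0* against 3589 to 3899 in wild-type embryos. Salivary gland markers summed to 1348 to 1528 in *Asx0* embryos, against 1239 to 1553 in wild-type embryos (4 of 6 tested). Of them *sage* was called higher (limma, log2 fold change 0.35, adjusted p = 0.0112), while *eyg*, *PH4alphaSG1* and *CrebA* had -0.04, 0.14 and 0.04, not called. Tracheal sums overlapped, and none of the 6 tracheal markers was called, with log2 fold changes between -0.08 and 0.31. The part of the markers of other cell types in the values of the 36 genes was not tested.

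**Figure D2:**
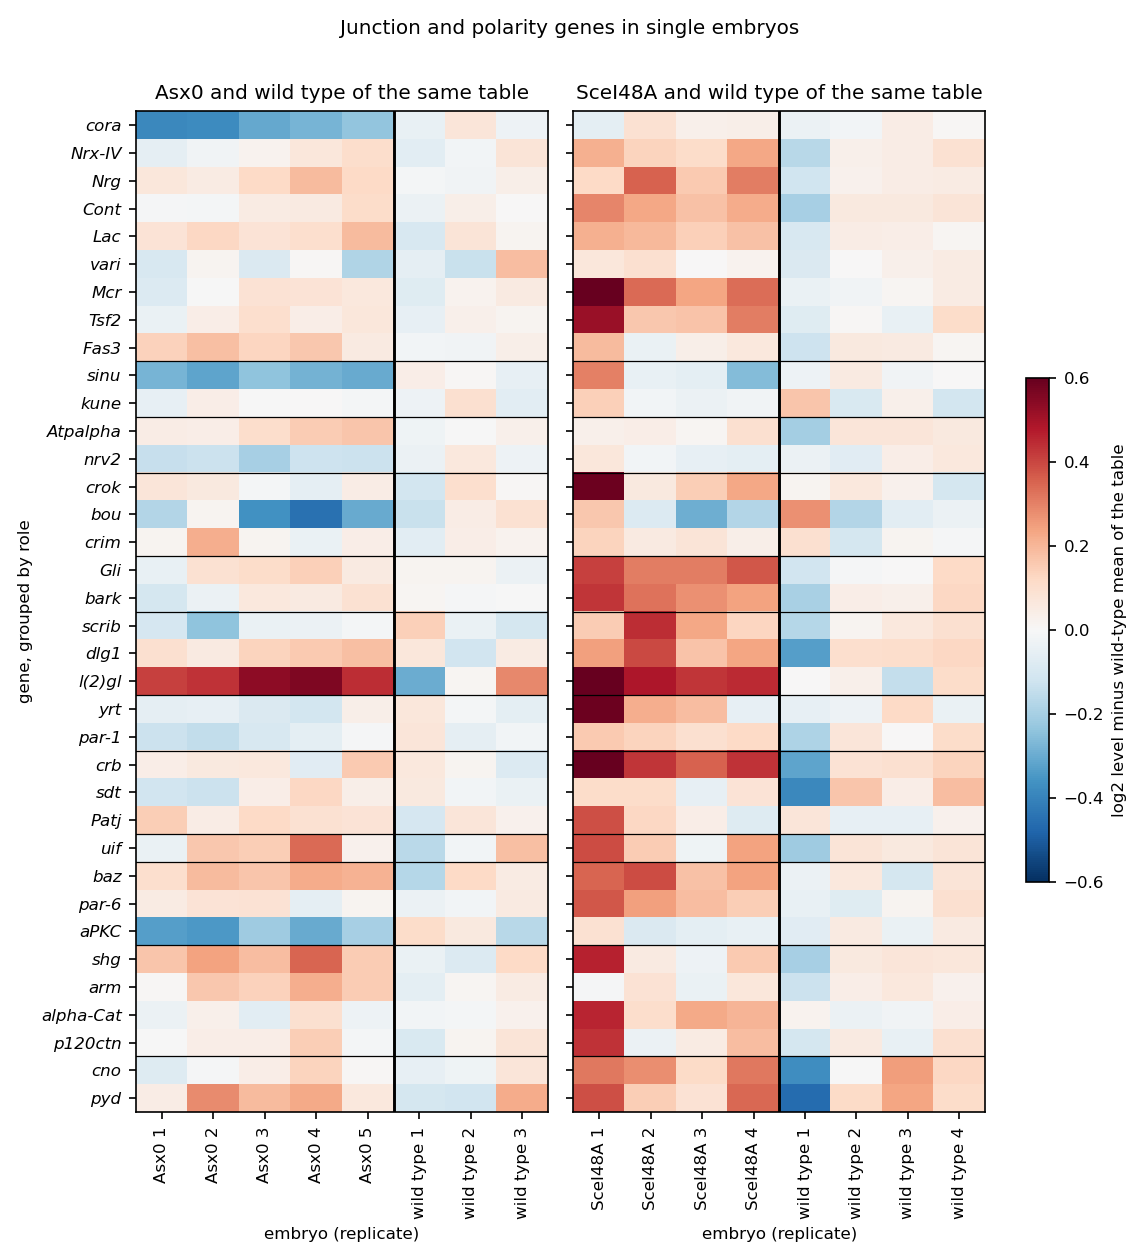
Level of each of the 36 genes in each embryo, as the log2 level minus the mean of the wild-type embryos of the same table, with the *Asx0* table on the left and the *SceI48A* table on the right, mutant embryos left of the black line and wild-type embryos right of it. Colors end at 0.6 in either direction; *cora*, *sinu* and *aPKC* are blue and *l(2)gl* is red in all 5 *Asx0* embryos, and most genes are red in the 4 *SceI48A* embryos.

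In *SceI48A* embryos the values of most of the 36 genes lay above wild type. Of the 36, 6 were called higher, against 3.1% of all tested genes, and none was called lower by limma, against 4.39%; at an unadjusted p under 0.05, 17 were higher (all tested genes 12.1%) and 0 lower (12.6%). The 6 were *l(2)gl* (1.43-fold), the apical determinant gene *crb* (1.43-fold), the septate junction gene *Mcr* (1.33-fold), the tricellular junction genes *Gli* (1.27-fold) and *bark* (1.25-fold) and the Par-3 gene *baz* (1.22-fold). None of the 6 reached a 2-fold change on these log2 values, a limit that 0.405% of all tested genes passed. The fold change was above 0 for 32 of the 36 genes and below 0 for *sinu*, *nrv2*, *bou* and *aPKC*. Over the 36 genes the median log2 fold change was 0.19, with quartiles at 0.06 and 0.26, against 0.0007 over all tested genes.

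Genes with high levels were shifted slightly upwards in this table. Over the 4014 tested genes with a mean at least that of the lowest of the 36, the median log2 fold change was 0.04, 59.1% were above 0 and 4.78% were called higher. The level of the 36 genes also depended on the 2 embryos that stood apart. *SceI48A* replicate 1 had the highest value of the 8 embryos for 23 of the 36 genes, and wild-type replicate 1 had the lowest for 23. Per embryo, the median difference of the 36 genes from the wild-type mean was 0.30, 0.13, 0.10 and 0.17 in *SceI48A* embryos, against -0.10, 0.04, 0.04 and 0.07 in wild-type embryos. The groups did not overlap, and without *SceI48A* replicate 1 and wild-type replicate 1 the median over the 36 genes was 0.095, with 27 of 36 above 0 and 4 called higher (*l(2)gl*, *crb*, *Mcr*, *Gli*). At an unadjusted p under 0.05, 14 were then higher and 0 lower, against 11.4% and 12.2% of all tested genes. The values of *Fas3*, *Atpalpha*, *sdt*, *shg* and *arm* turned to between -0.08 and -0.01. With each embryo left out in turn the median lay between 0.13 and 0.23, and the number called higher between 2 and 5, with 2 called without wild-type replicate 1, 2 or 3 and 3 called without *SceI48A* replicate 2.

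The mean log2 level of 86 cuticle protein genes, which rises late in embryogenesis as cuticle is made, was 8.92, 9.12, 9.18 and 8.89 in *SceI48A* embryos, against 9.30, 9.03, 9.15 and 9.002 in wild-type embryos. The groups overlapped, wild-type replicate 1 had the highest level, and *SceI48A* replicates 1 and 4 the lowest. With this level as a covariate 3 of the 36 genes were called higher (*l(2)gl*, *crb* and *Gli*), and the median log2 fold change was 0.12. Its part in the higher values of the 36 genes, and that of the age of the embryos, was not tested beyond this. In the *Asx0* table the mean over 91 such genes was 9.34 to 9.55 in *Asx0* embryos, against 9.36 to 9.59 in wild-type embryos.

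**Figure D3:**
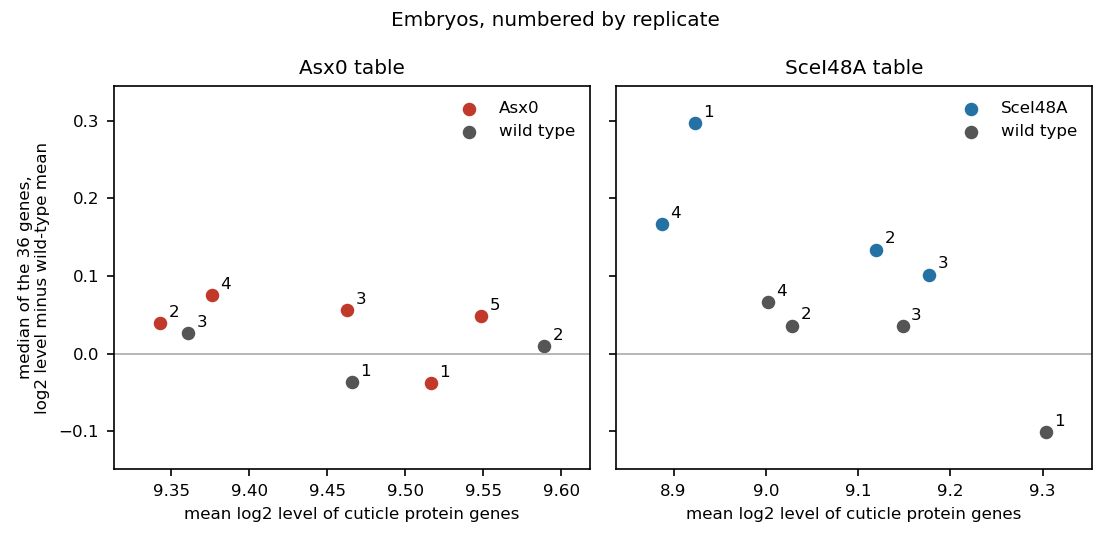
Median over the 36 genes of the log2 level minus the wild-type mean, plotted for each embryo against the mean log2 level of the cuticle protein genes, with points numbered by replicate. In the *SceI48A* table the 4 mutant embryos lie between 0.10 and 0.30 and the wild-type embryos between -0.10 and 0.07; in the *Asx0* table the groups overlap.

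All 9 septate junction adhesion and scaffold genes had values above wild type in *SceI48A* embryos, with a median log2 fold change of 0.18, and 6 of the 9 had no overlap between groups, against 8.89% of all tested genes. Without the 2 embryos that stood apart the median of the 9 was 0.14, 8 were above 0 and 6 had no overlap, against 14.1% of all tested genes. Only *Mcr* was called. It encodes Macroglobulin complement-related, a thioester-type protein needed to form septate junctions. Its log2 level was 13.31, 12.92, 12.82 and 12.92 in *SceI48A* embryos, against 12.54, 12.56, 12.59 and 12.63 in wild-type embryos. Every mutant embryo was above every wild-type embryo, and *SceI48A* replicate 1 was farthest above. The log2 fold change was 0.41 (limma, SE = 0.099, adjusted p = 0.0281). The call was lost when any of the 4 wild-type embryos was left out, and adjusted p lay between 0.0101 and 0.0833 over the alternatives; without the 2 embryos that stood apart it was 0.0161, at a log2 fold change of 0.29. *cora*, lower in *Asx0* embryos, had a log2 fold change of 0.02 here (adjusted p = 0.858). The other genes of the group without overlap were *Nrx-IV*, *Nrg*, *Cont*, *Lac* and *Tsf2*, with log2 fold changes between 0.17 and 0.29 and adjusted p between 0.0678 and 0.183.

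Claudin and sodium pump genes had fold changes near 0. Their log2 fold changes were -0.02 for *sinu*, 0.02 for *kune*, 0.04 for *Atpalpha* and -0.01 for *nrv2*, with adjusted p between 0.777 and 0.941. The standard errors were between 0.067 and 0.10. Among the Ly6 genes *crok*, which encodes Crooked, had the smallest p, with 10.42, 9.89, 9.98 and 10.06 in *SceI48A* embryos, against 9.85, 9.89, 9.85 and 9.72 in wild-type embryos (log2 fold change 0.26, adjusted p = 0.16).

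Both tricellular junction genes were called higher, against 3.1% of all tested genes. *Gli* encodes Gliotactin, a transmembrane protein of the corners between cells. It was at 12.64, 12.53, 12.53 and 12.60 in *SceI48A* embryos, against 12.11, 12.22, 12.23 and 12.34 in wild-type embryos. The groups did not overlap, with a log2 fold change of 0.35 (limma, SE = 0.071, adjusted p = 0.0130), and the call was kept in all 21 alternatives, with adjusted p of at most 0.0475. *bark* encodes Bark beetle, also called Anakonda, which recruits Gliotactin. It was at 13.06, 12.96, 12.91 and 12.88 in *SceI48A* embryos, against 12.44, 12.67, 12.66 and 12.76 in wild-type embryos. These groups did not overlap, with a log2 fold change of 0.32 (limma, SE = 0.082, adjusted p = 0.0389), but the call was lost when any embryo other than wild-type replicate 4 was left out, and adjusted p lay between 0.0234 and 0.0935. Without the 2 embryos that stood apart the log2 fold change of *bark* was 0.22 (adjusted p = 0.0502), and that of *Gli* 0.29 (adjusted p = 0.0191).

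The 3 genes of the Scribble module all lay above wild type without overlap, against 8.89% of all tested genes. Without the 2 embryos that stood apart this also held for all 3, against 14.1% of all tested genes. Of the 3, *l(2)gl* was called. It was at 15.01, 14.77, 14.72 and 14.73 in *SceI48A* embryos, against 14.29, 14.32, 14.14 and 14.40 in wild-type embryos. All mutant embryos lay above all wild-type embryos, with a log2 fold change of 0.52 (limma, SE = 0.086, adjusted p = 0.00400). The call was kept in all 21 alternatives, with adjusted p between 0.00117 and 0.0220, and without the 2 embryos that stood apart it was 0.00513 at a log2 fold change of 0.45. *dlg1* and *scrib*, which encode its partner scaffolds, had log2 fold changes of 0.26 and 0.24, with adjusted p of 0.144 and 0.123. *yrt* and *par-1* had 0.24 and 0.13 (adjusted p = 0.23 and 0.336), with overlapping groups.

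*crb* was the called gene of the Crumbs complex. It encodes the transmembrane protein that defines the apical membrane, and it was at 12.06, 11.64, 11.57 and 11.65 in *SceI48A* embryos, against 10.90, 11.30, 11.31 and 11.35 in wild-type embryos. Mutant and wild-type embryos did not overlap, but the 2 embryos that stood apart were the extremes of both groups. The log2 fold change was 0.52 (limma, SE = 0.12, adjusted p = 0.0294), and without these 2 embryos it was 0.30 (adjusted p = 0.0138). The call was lost without *SceI48A* replicate 2 or wild-type replicate 1, 2 or 3, and adjusted p over the alternatives lay between 0.0138 and 0.102. *sdt* and *Patj*, which encode scaffolds of the Crumbs complex, had log2 fold changes of 0.06 and 0.12 (limma, adjusted p = 0.779 and 0.48). *uif* had 0.19 (adjusted p = 0.27).

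In the Par complex, *baz* was at 11.75, 11.79, 11.57 and 11.64 in *SceI48A* embryos, against 11.36, 11.46, 11.29 and 11.47 in wild-type embryos. The groups did not overlap, with a log2 fold change of 0.29 (limma, SE = 0.076, adjusted p = 0.0416). The call was lost when any embryo other than *SceI48A* replicate 3 was left out, and adjusted p lay between 0.0284 and 0.115, with 0.0776 without the 2 embryos that stood apart (log2 fold change 0.26). *par-6* was also above wild type without overlap (log2 fold change 0.24, adjusted p = 0.0788), whereas *aPKC*, the third gene of the complex, had -0.02 (adjusted p = 0.872).

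Of the 6 adherens junction and scaffold genes, none was called by limma in *SceI48A* embryos. At an unadjusted p under 0.05, 2 (*alpha-Cat* and *cno*) were above wild type, against 12.1% of all tested genes. The smallest p belonged to *alpha-Cat*, with 12.38, 12.03, 12.15 and 12.13 in *SceI48A* embryos, against 11.94, 11.89, 11.90 and 11.96 in wild-type embryos, a log2 fold change of 0.25 (limma, adjusted p = 0.0839). *shg* had 0.16 (adjusted p = 0.387), and *arm* 0.03 (adjusted p = 0.854). *cno*, which encodes the afadin of the fly, and *pyd* had log2 fold changes of 0.26 and 0.24, with adjusted p of 0.201 and 0.299. The wild-type embryos differed most for *pyd* (SD 0.31, n = 4), *cno* (SD 0.27) and *sdt* (SD 0.27), with wild-type replicate 1 the lowest for all 3.

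The groups did not overlap for 15 of the 36 genes in the *SceI48A* table, all of them higher, against 8.89% of all tested genes higher and 9.1% lower without overlap. Without *SceI48A* replicate 1 and wild-type replicate 1 it was 16 higher and 2 lower (*sinu* and *aPKC*), against 14.1% and 14.8% of all tested genes. Among the other cell types, tracheal markers belong to an epithelium with septate junctions. Of these (6 of 6 tested), *pio* was called higher at a log2 fold change of 0.57. Tracheal markers summed to 40222 to 44384 in *SceI48A* embryos, against 38039 to 39995 in wild-type embryos. This sum overlapped between groups without *serp*, *pio* or *vvl*, and *trh* had -0.17 (adjusted p = 0.223). Midgut markers summed to 1977 to 3636 in *SceI48A* embryos, against 3864 to 4162 in wild-type embryos (4 of 6 tested, *Jon65Aiii* called lower, *betaTry* and *Mal-A1* below the minimum), and overlapped without *Jon65Aiii*. Hemocyte markers summed to 7771 to 10005 in *SceI48A* embryos, against 9818 to 11456 in wild-type embryos, with 2 of 4 tested called lower (*NimC1* by a log2 fold change of -1.08 and *Pxn* of -0.46) and *Hml* and *He* below the minimum. The 2 other hemocyte markers tested went the other way, *srp* at 0.16 without overlap and *crq* at 0.18, and neither was called. Fat body markers overlapped, with 1 of 6 called higher (*Lsd-1*). Salivary gland sums also overlapped (4 of 6 tested), with none called by limma. Of these *CrebA* was higher without overlap (limma, log2 fold change 0.34, adjusted p = 0.0659), *PH4alphaSG1* had -0.21, *sage* 0.13 and *eyg* 0.03. The part of the markers of other cell types in the values of the 36 genes was not tested.

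**Figure D4:**
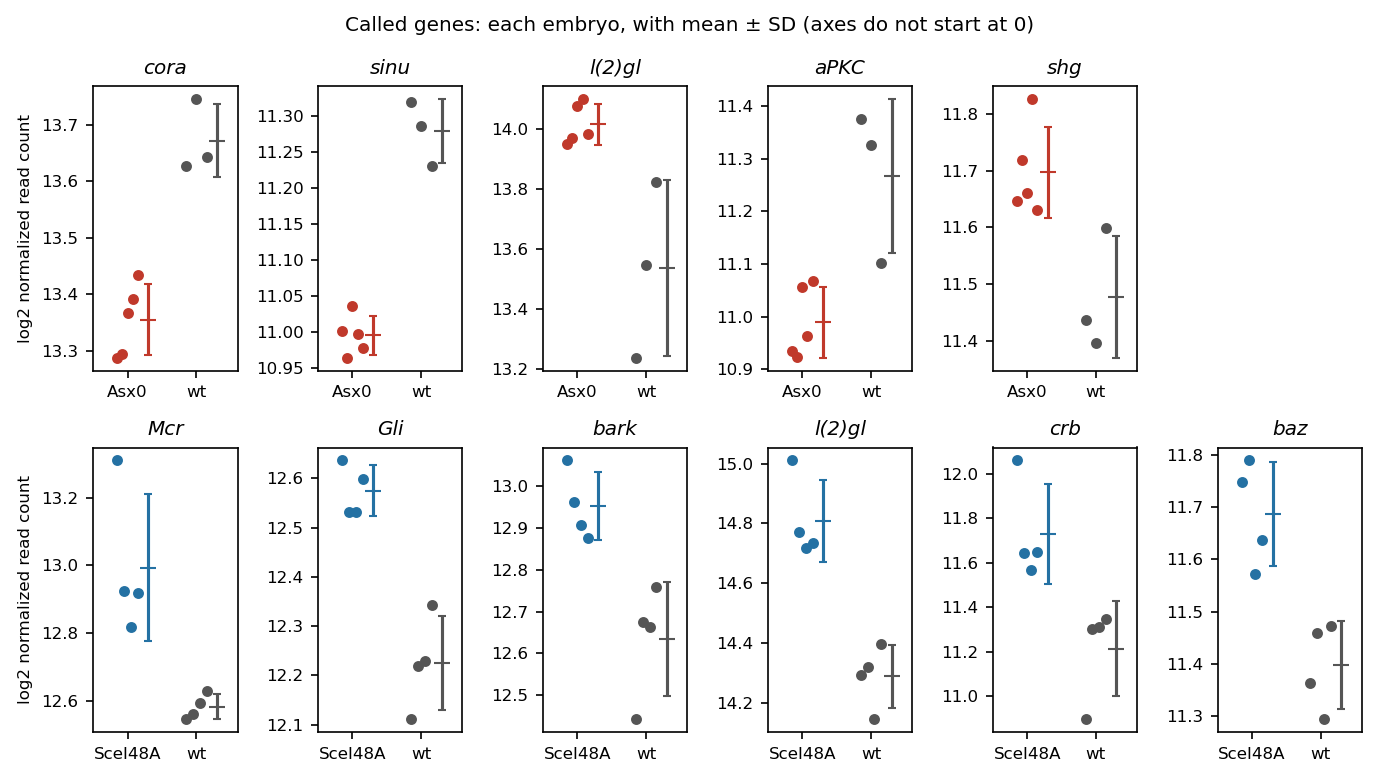
Log2 normalized read count in each embryo of the genes called in *Asx0* (top row, 5 mutant embryos left and 3 wild-type embryos right) and *SceI48A* (bottom row, 4 left and 4 right), with mean ± SD beside the points; axes do not start at 0. In all 11 panels no mutant embryo lies among the wild-type embryos; for *l(2)gl* the mutant embryos are the higher ones in both rows.

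Set side by side, the 2 comparisons shared 1 called gene, *l(2)gl*, which was higher in both. This held for 0.735% of the 10069 genes that were tested in both. Of the 36 genes, 10 were called in either comparison, against 16.4% of all genes tested in both, and 26 in neither. Fold changes were above 0 in both for 24 genes (30.6% of all) and below 0 in both for 4 (*sinu*, *nrv2*, *bou* and *aPKC*, 30.7% of all), while 8 were below 0 in *Asx0* embryos and above 0 in *SceI48A* embryos (19.5% of all). *cora* was -0.32 in *Asx0* and 0.02 in *SceI48A* embryos, *sinu* -0.28 and -0.02, *aPKC* -0.28 and -0.02, *crb* 0.05 and 0.52, *Mcr* 0.03 and 0.41, and *Gli* 0.07 and 0.35 on the log2 scale. The difference between the mutants was not tested, since the tables were normalized separately. The wild-type embryos of the 2 tables are different embryos of the same Oregon-R stock. A level of *l(2)gl* particular to that stock would therefore enter both comparisons. In *Asx0* embryos its call was lost with *msl-2* minus *Sxl* as a covariate (limma, adjusted p = 0.0674) and with no filter (adjusted p = 0.0579).

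**Figure D5:**
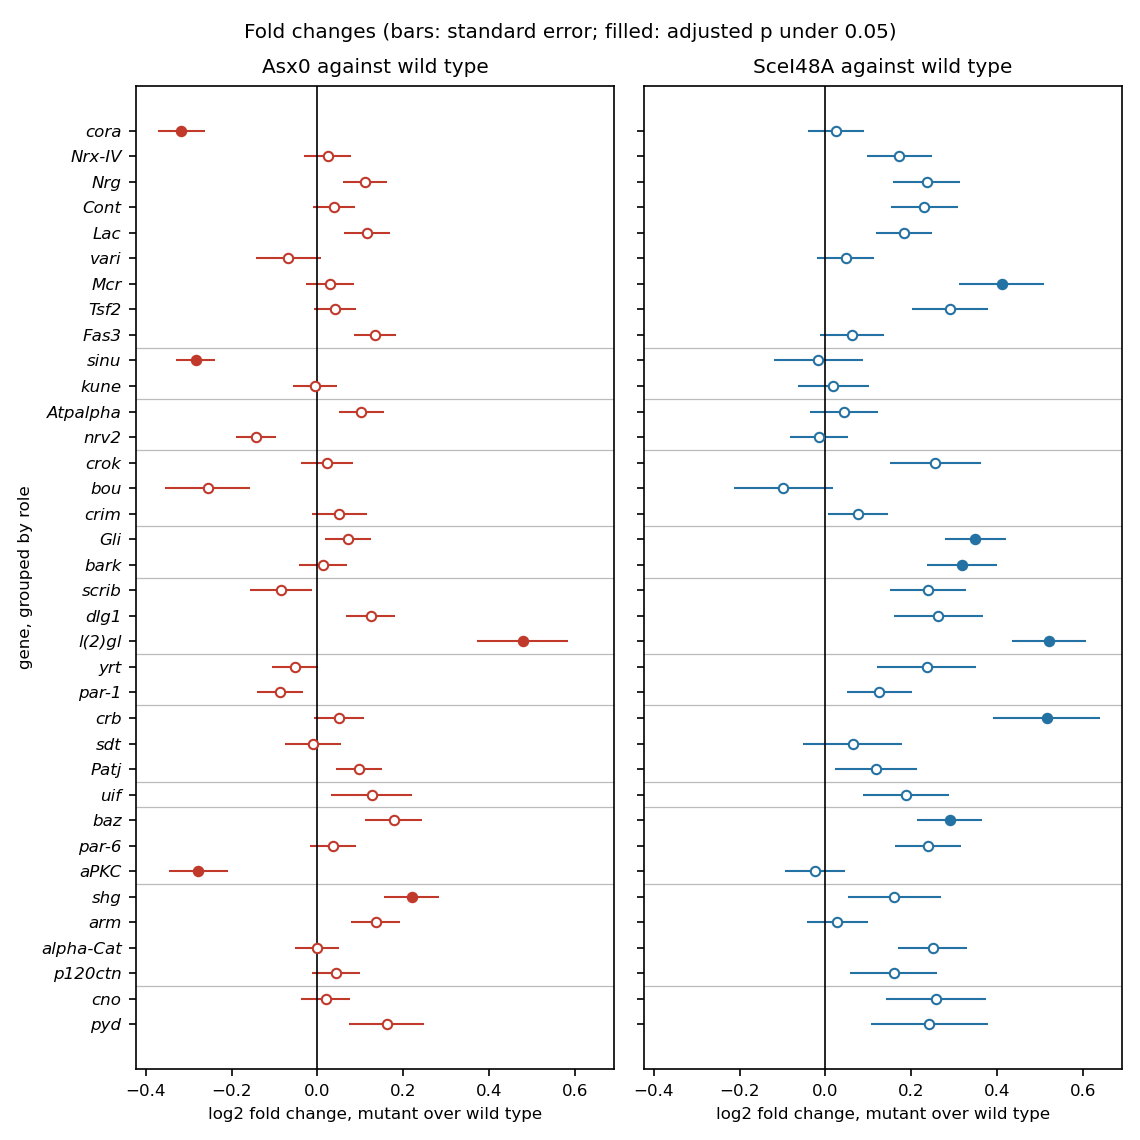
Log2 fold change of mutant over wild type with its standard error for each of the 36 genes, in *Asx0* (left) and *SceI48A* embryos (right), with filled circles for genes at an adjusted p under 0.05. In *Asx0* embryos the values lie on both sides of 0, and in *SceI48A* embryos 32 of 36 lie above it.

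The spread between embryos of 1 group was small for these genes. The authors had chosen embryos that were alike by principal components, and the values look shrunken. The part of either in this spread was not tested. The median SD over the 36 genes was 0.064 among *Asx0* embryos and 0.066 among the wild-type embryos of that table, and 0.097 among *SceI48A* embryos and 0.091 among wild-type embryos of the other. For all genes with a mean at least that of the lowest of the 36 it was 0.081, 0.080, 0.12 and 0.10 in the same groups. The most even gene was *sinu* in *Asx0* embryos and *par-1* in *SceI48A* embryos, and the most variable *bou* in *Asx0* embryos and *yrt* in *SceI48A* embryos. Among wild-type embryos the most variable were *l(2)gl* in the *Asx0* table (SD 0.29) and *pyd* in the *SceI48A* table (SD 0.31).

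The 36 genes are spread over the genome, with 9 on chromosome arm 2L, 7 on 2R, 6 on 3L, 7 on 3R and 7 on X (dm6 assembly). *l(2)gl* (FBgn0002121) lies near the end of 2L, at 9839-21376 on the minus strand. Of the genes called in *Asx0* embryos, *cora* (FBgn0010434, 19229063-19243751), *aPKC* (FBgn0261854, 14944458-14962969) and *shg* (FBgn0003391, 21049654-21057197) lie on 2R, the arm of *Asx* itself, and *sinu* (FBgn0010894, 5559470-5561598) lies on 3L. On 2R 3 of 7 genes were called in *Asx0* embryos, against 5.94% of all tested genes of that arm called higher and 7.001% called lower. Of the genes called in *SceI48A* embryos, *Mcr* (FBgn0267488, 8074117-8082982), *Gli* (FBgn0001987, 15756002-15762758) and *bark* (FBgn0031571, 3787167-3802726) lie on 2L with *l(2)gl*, *crb* (FBgn0259685, 24295078-24314541) on 3R and *baz* (FBgn0000163, 17160006-17200728) on X. On 2L 4 of 9 were called higher in *SceI48A* embryos, against 3.15% of all tested genes of that arm. Chromosomes that came from the mutant stocks and the mutations they carry cannot be told apart in these values. No use of strand in counting is stated in the sources used here. Of the 36 genes, 5 share more than 5% of their exonic bases with another annotated gene or element (*vari* 15.2%, *alpha-Cat* 11.7%, *crim* 8.51%, *par-1* 7.87% and *Patj* 5.37%). For *alpha-Cat* this is an *INE-1* element that was not among the tested genes. How reads of such a shared part were divided is not known.

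Of 25 other genes of these junctions and of polarity, all tested, 2 were called higher and 1 lower in *Asx0* embryos, against 5.19% and 6.15% of all tested genes, with a median log2 fold change of 0.02. *Cad99C*, a cadherin gene of apical membranes, was at 11.49, 11.24, 11.27, 11.32 and 11.44 in *Asx0* embryos, against 11.06, 11.06 and 11.05 in wild-type embryos (limma, log2 fold change 0.29, adjusted p = 0.0126). *Moe*, which links actin to the apical membrane, had 0.19 (adjusted p = 0.0440), also without overlap. *Ssk* encodes Snakeskin, a membrane protein of the smooth septate junctions of the midgut. It was at 12.38, 12.28, 12.25, 12.21 and 12.33 in *Asx0* embryos, against 12.75, 13.24 and 12.47 in wild-type embryos (log2 fold change -0.53, adjusted p = 0.0269). The midgut marker sums given above were lower in these embryos, too, and their part in the value of *Ssk* was not tested; *mesh*, *Tsp2A* and *hoka*, the other smooth septate junction genes, had log2 fold changes of -0.11, -0.16 and 0.02 and were not called.

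In *SceI48A* embryos 1 of the 25 was called higher, against 3.1% of all tested genes. This was *cold*, which encodes a Ly6-type protein needed for septate junctions. It was at 10.68, 10.45, 10.43 and 10.45 in *SceI48A* embryos, against 10.25, 10.11, 10.15 and 10.26 in wild-type embryos (limma, log2 fold change 0.31, adjusted p = 0.0357). None of the 25 was called lower by limma, against 4.39% of all tested genes, and at an unadjusted p under 0.05 2 were higher and 1 lower, against 12.1% and 12.6% of all tested genes. *Ssk* was again below wild type without overlap, at a log2 fold change of -0.25 (adjusted p = 0.103). The median of the 25 was 0.04, and 19 were above 0. *grh*, the gene of the epithelial transcription factor Grainyhead, had log2 fold changes of -0.07 in *Asx0* and -0.01 in *SceI48A* embryos, with adjusted p of 0.371 and 0.966.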

How the data were processed

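Per the supplement, the authors made a poly(A) library from each embryo, quantified release 6.35 transcripts with Salmon, summed them with tximeta and tested genes with DESeq2, after choosing embryos of like stage by principal components and morphology. Each of the 2 deposited tables gives a log2 normalized read count per embryo, whose transformation is not given in the sources used here, and the mean normalized count that the authors formed over its embryos, a signal. Their fold changes and p-values were not used. Reads per embryo are unknown, so no count test was made.

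limma 3.58.1 (R 4.3.3, empirical Bayes with a variance trend) was fitted to each table alone, over genes with a mean of at least 10, with Benjamini-Hochberg adjustment; it was tested on simulated data. Symbols, lengths and coordinates are from Ensembl release 115 (BDGP6.54). The 36 genes, the 25 others and the marker lists were chosen with earlier results of these data known. Named were all called genes, the smallest p of each role with none called, and the extremes of level and wild-type SD; other members were added from their role groups after their values were seen. Alternatives were no filter or a mean of 50, pseudocounts of 1 and 5, other normalizations and variance models, covariates from cuticle genes or *msl-2* and *Sxl*, the replicate number as a block, and each embryo left out; leaving out 2 embryos that stood apart was added after seeing the data. The labels do not say that embryos came from separate crosses, so p-values measure the spread between these embryos. Promoter sequences were not analysed here.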

Additional observations from a re-analysis of the deposited data

Results flagged for a closer look

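In each group of 4 or 5 embryos the highest or lowest value of each of the 36 genes was compared with the rest by Dixon's ratio. This ratio sets the gap against the range of the group, so a flagged gap can be small in size. In 12 of 108 groups an embryo was flagged, where chance gives about 5%. The same 8 embryos enter all genes of a table, so these are not independent of each other. Wild-type replicate 1 of the *SceI48A* table accounted for 7 of the 12, each time as the lowest of 4 embryos. There it had 14.49 for *Nrg*, 12.59 for *Cont*, 15.21 for *Atpalpha*, 12.50 for *dlg1*, 10.90 for *crb*, 14.90 for *uif* and 11.99 for *shg*, on the log2 scale.

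*SceI48A* replicate 1 was flagged above the other mutant embryos for *kune* (10.99 against 10.814 to 10.835) and *crb* (12.06 against 11.57 to 11.65). *SceI48A* replicate 3 was flagged below the others for *sdt* (12.24 against 12.37 to 12.40). Wild-type replicate 3 of the same table was flagged as high for *yrt* (10.07 against 9.90 to 9.92). *Asx0* replicate 3 was flagged as low for *nrv2* (12.56 against 12.62 to 12.63).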

How the results depend on the processing

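Of the 11 calls among the 36 genes, 4 were kept under every alternative (*cora* and *sinu* in *Asx0*, *Gli* and *l(2)gl* in *SceI48A* embryos), 7 were lost under at least 1, and 0 reversed. The 2 genes higher in *Asx0* embryos became 0 with no filter, 0 with *msl-2* minus *Sxl* as a covariate, 1 with no variance trend, 1 with weights per embryo, and 1 to 3 with each embryo left out; the 3 lower ones were 2 or 3 with each embryo left out. The 6 genes higher in *SceI48A* embryos became 2 with no filter, 3 with the cuticle covariate and 2 to 5 with each embryo left out. The median over the 36 genes in *SceI48A* embryos, 0.19, was 0.10 with weights per embryo, 0.095 without the 2 embryos that stood apart, and 0.13 to 0.23 with each embryo left out. With the replicate number as a replicate block, the genes called higher were 1 in *Asx0* and 2 in *SceI48A* embryos, and those called lower 2 in *Asx0* embryos. Deviations of same-numbered embryos had correlations of 0.16, 0.06 and -0.09 in the *Asx0* table and -0.13, -0.03, -0.08 and 0.11 in the *SceI48A* table. Such values are low, but so few pairs cannot settle whether the numbers pair embryos. The cause of these changes was not tested. Over all tested genes, calls in *Asx0* embryos were 1158, but 749 with the *msl-2* minus *Sxl* covariate and 654 with the block; in *SceI48A* embryos they were 776, but 421 with no filter, 1178 with weights per embryo, 446 with the block and 390, 459 and 479 without wild-type replicates 2, 3 and 4 and 479 without *SceI48A* replicate 2. Values that look shrunken and an unknown depth limit how small a change can be seen.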
